A study of Mus musculus with 18 samples.

Results

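The genes for 41 neuropeptide and related secreted peptide precursors were examined in the hypothalamus, pituitary, and thyroid of mice. They were chosen by gene symbol from 24054 genes with a value in every library, and all 41 were found in each tissue. RNA-Seq was performed on bulk tissue from 3-month-old male C57BL/Ntac mice that received no treatment. There were 3 WT mice (numbers 1, 2, and 43) and 3 mice with the THRB K146Q mutation (numbers 60, 62, and 83, labelled Hb), and the same mouse numbers occur in each tissue, which gives 18 libraries in 6 groups of 3. The labels call the middle tissue pituitary, while the study's own legend speaks of anterior pituitary. The K146Q mice are homozygous for a global knock-in of a single base in the thyroid hormone receptor β gene that removes a site of sumoylation, the attachment of the small protein SUMO, from all receptor isoforms. The receptor is therefore altered in every tissue and from the start of development, and a point mutation cannot be checked in values per gene. The series asks how this mutation affects the hypothalamus-pituitary-thyroid axis, and the comparisons here are which precursors each tissue expressed and how their levels in K146Q mice compared with WT in each tissue.

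Neuropeptides are made as longer precursors that are cleaved in secretory vesicles by the convertases Pcsk1 and Pcsk2, trimmed by Cpe, and often amidated by Pam. In the hypothalamus, thyrotropin-releasing hormone (TRH, from Trh), CRH, GHRH, GnRH, and somatostatin (from Sst) are released into portal blood and act on cells of the anterior pituitary, and TRH drives the secretion of thyroid-stimulating hormone (TSH). Vasopressin and oxytocin are made in hypothalamic neurons whose axons end in the posterior pituitary. Several precursors are also made in endocrine cells of the pituitary and thyroid, and Bdnf (a neurotrophin), Adm, Nppa, and Nppc encode secreted factors that act far beyond the nervous system.

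The libraries held 14902330 to 21230050 reads, and a value of 3 reads corresponded to 0.133 to 0.19 CPM (read counts normalized to library size). The tissues carried their own markers. In WT mice, Tg, which encodes thyroglobulin, averaged 333547 CPM in thyroid, and growth hormone (Gh) averaged 145434 CPM in pituitary, while the hypothalamic transcription factors Otp and Sim1 lay at 14.9 to 21.5 and 8.17 to 10.6 CPM in hypothalamus and at no more than 0.172 and 1.44 CPM in the other WT tissues. The full list of 14 hypothalamic region genes was less selective, with sums of 122 to 147 CPM in WT hypothalamus, 342 to 374 CPM in pituitary, where Six6 and Nr5a1 were higher than in hypothalamus, and 185 to 215 CPM in thyroid, where Tbx3 was. Genes of another tissue were seen at a low share. Tg in the WT pituitary was 0.0395% to 0.0509% of its thyroid mean, and Gh in the WT hypothalamus was 0.0574% to 0.0642% of its pituitary mean; the part of such reads in values under 1 CPM was not tested. In the thyroid of WT mouse 1, Gh reached 365 CPM, against 125 and 99.6 CPM in WT mice 2 and 43. Genes that reached 0.5 CPM in 3 or more libraries were tested with limma on log2(CPM + 0.5), so that each log2 difference understates the change of low genes, and p-values were adjusted over all genes tested. The threshold was 0.05. The strand of counting was not given, and reads of overlapping genes on the opposite strand could not be told apart from those of Bdnf (497 shared exon bases with Gm45346), Nppa (294 with Gm13054), Pmch (236 with Parpbp), Penk (157 with A830012C17Rik), Agrp (114 with Ctcf), and Nmu (39 with 4930432L08Rik). On the same strand, Kiss1 shares 546 exon bases with Gm28040 and 102 with Golt1a, and Agrp 114 with Gm5914. The counting rule for such bases was not given, so the low Kiss1 values may depend on it. A permutation test of 3 mice against 3 cannot give an exact p under 0.1.

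Promoter sequences of 33 of the 41 precursor genes were read from RefSeq (GRCm38.p6), with 250 bases before and 50 after each start. Those of 4 genes are shown, for Trh because its product heads the axis, and for Cartpt, Cck, and Sst because their levels differed most between genotypes in pituitary or thyroid among the genes with a window. The capitals mark 3 motifs, searched on both strands: TGACGTCA, the site of cAMP response element-binding proteins; TGACG, the shorter core of that site; and AGGTCA, the core hexamer bound by nuclear receptors such as the thyroid hormone receptor. TGACG lies within TGACGTCA. Each stretch reads in the direction of the gene, which is on the minus strand in each case, and ends before the RefSeq start.
Trh, chr6:92244651-92244800: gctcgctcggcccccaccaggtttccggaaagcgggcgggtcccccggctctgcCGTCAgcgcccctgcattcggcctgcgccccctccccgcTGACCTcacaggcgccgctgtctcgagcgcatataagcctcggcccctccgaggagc
Cck, chr9:121495695-121495844: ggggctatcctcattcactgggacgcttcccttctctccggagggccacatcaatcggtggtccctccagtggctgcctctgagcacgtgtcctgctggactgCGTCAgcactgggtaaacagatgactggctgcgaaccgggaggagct
Cartpt, chr13:99900777-99900806: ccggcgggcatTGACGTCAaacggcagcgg
Sst, chr16:23890874-23890903: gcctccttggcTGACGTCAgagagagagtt

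For Trh, TGACG starts 96 bases before the start site and AGGTCA 57 bases before it, both on the opposite strand and so written CGTCA and TGACCT. In Cck, TGACG starts 47 bases before the start site, again as CGTCA. The full TGACGTCA starts 112 bases before the start site of Cartpt and 48 bases before that of Sst; for these 2 genes only the 30 bases around it are shown, since longer annotated transcripts cover the region. The 33 genes had 42 windows. TGACGTCA was present in 3 of the 42 (of Cartpt, Sst, and Ucn), against 1.79% of 32851 windows of all genes. TGACG was present in 18 of the 42, against 20.8% of all windows, and AGGTCA in 8, against 16.3%. These matches describe the letters only. Agrp, Crh, Gnrh1, Grp, Npb, Npw, Penk, and Vgf had no entry.

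In WT mice the hypothalamus expressed most precursors and the thyroid the fewest. Counting a gene as expressed when all 3 WT libraries had at least 0.5 CPM, the hypothalamus expressed 32 of 41, the pituitary 15, and the thyroid 7. The summed level of the 41 genes was 1235 to 1498 CPM in hypothalamus, 86.4 to 126 CPM in pituitary, and 124 to 155 CPM in thyroid. The 5 genes expressed in all 3 tissues were Adm (adrenomedullin, a vasodilator), Grp (gastrin-releasing peptide), Nmb (neuromedin B), Nppc (C-type natriuretic peptide), and Penk (the enkephalin precursor). In hypothalamus alone, 16 were expressed: Trh, Crh, Ghrh, Gnrh1, Hcrt, Pmch, Agrp, Tac2, Nts, Vip, Adcyap1, Npvf, Qrfp, Ucn, Ucn3, and Nppa. Cort, Galp, Kiss1, Nms, Npb, Npw, Prok2, and Rln3 did not reach this level in any WT tissue. Since bulk tissue was measured, fewer cells of a type and less RNA per cell cannot be told apart. Galp, Cort, and Npw were each seen in no more than 4 reads per library in all 18 libraries.

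**Figure D1:**
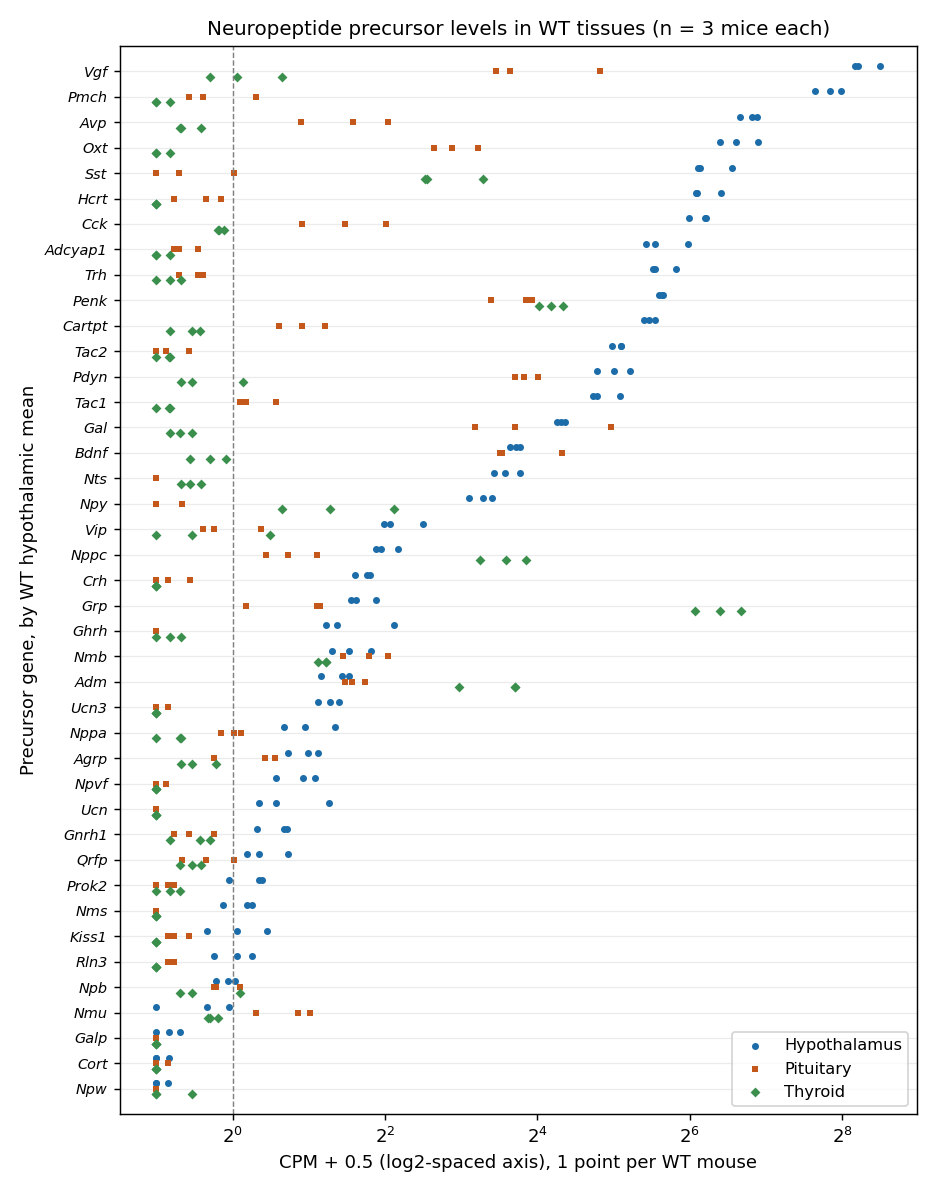
Levels of the 41 precursor genes in the 3 WT tissues. Each point is 1 WT mouse (n = 3 per tissue), the x axis is CPM + 0.5 on a log2-spaced scale, genes are ordered by their WT hypothalamic mean, and the dashed line marks 0.5 CPM. The hypothalamus has the highest mean for 34 genes, the pituitary for 3, and the thyroid for 4.

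Per kilobase of exon, which allows genes to be compared with each other, the WT hypothalamus was led by Pmch (304 ± 35.6 CPM per kb, SD, n = 3), Avp (191 ± 15.4), Oxt (186 ± 33.2), Sst (107 ± 19.8), and Vgf (106 ± 13.9). Within this order Avp and Oxt did not differ beyond their spread, nor did Sst and Vgf. Pmch encodes melanin-concentrating hormone, Avp vasopressin, and Oxt oxytocin, and Vgf encodes a secretory protein cut into several peptides. The WT pituitary was led by Gal (22 ± 15.1 CPM per kb, SD, n = 3), the galanin precursor, followed by Oxt (13.3 ± 2.94), Penk (7.88 ± 1.57), Vgf (5.62 ± 3.21), and Pdyn (4.83 ± 0.521), the dynorphin precursor. These pituitary means lay within the spread of their neighbours except Oxt above Penk. Grp headed the WT thyroid (57 ± 12 CPM per kb, SD, n = 3), followed at a distance by Nppc (11 ± 2.4), Penk (10.8 ± 1.24), Sst (9.19 ± 3.17), and Adm (6.67 ± 1.85), whose neighbours in this order overlapped. Oxt RNA in the pituitary was at 6.85, 8.87 and 5.75 CPM and Avp RNA at 2.49, 3.6 and 1.37 CPM in the WT mice. In WT pituitary and thyroid, Trh RNA stood at 0.114 to 0.267 and 0 to 0.127 CPM, which is 9 reads or fewer per library.

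Between WT tissues, 34 of the 41 genes were tested. The pituitary differed from the hypothalamus in 29, with 28 lower and 1 higher, beside 72.5% of all 16622 genes (35.6% lower and 36.9% higher). The thyroid differed from the hypothalamus in 31, with 28 lower and 3 higher, beside 81.3% of all genes (39.8% lower and 41.5% higher). From the pituitary it differed in 22, with 15 lower and 7 higher, beside 74.8% of all genes (38.3% lower and 36.4% higher). The 16 genes expressed in hypothalamus alone passed the minimum through that tissue, so a lower level elsewhere was set by the filter. Nmu, the neuromedin U precursor, was the single gene higher in pituitary than in hypothalamus, at 1.51, 1.32 and 0.74 against 0, 0.289 and 0.464 CPM, and it passed the minimum through pituitary alone, so this direction too was set by the filter. Adm, Grp, and Nppc were higher in thyroid than in both other tissues, and every WT thyroid value of these 3 genes lay above every other WT value. Grp was at 66.6, 102 and 83.8 CPM in WT thyroid, 2.57, 2.43 and 3.19 CPM in hypothalamus, and 1.65, 1.72 and 0.627 CPM in pituitary. Sst was also higher in thyroid (5.37, 5.25 and 9.26 CPM) than in pituitary (0, 0.114 and 0.513 CPM), as were Penk and Npy. Nts, also called, was at 0.126, 0.253 and 0.18 CPM in thyroid, or 4 reads and fewer, and at 0 in pituitary. When library totals were taken without the 10 highest genes, the median of all genes moved by 0.24 for pituitary against hypothalamus and by -0.23 for thyroid against pituitary on the log2 scale. The split of all calls became 7763 higher and 4601 lower (from 6140 and 5912) and 4711 higher and 7881 lower (from 6056 and 6372), while the precursor counts became 28 and 21.

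In the hypothalamus, no precursor passed the test for genotype. Of 41 genes, 37 were tested and limma called 0, beside 0% of 15761 genes in all. At an unadjusted p under 0.05 there were 4 precursors and 645 genes in all, and edgeR and DESeq2 on whole reads also called 0 precursors, with 0 and 9 genes in all. The median log2 difference over the tested precursors was -0.11, against -0.00108 over all genes, and 27 were lower and 10 higher. Marker lists were also uneven in sign: of 14 hypothalamic region genes 12 were lower (median -0.15, sum 122 to 147 CPM in WT and 104 to 128 CPM in K146Q mice), and of 8 genes of other brain regions 7 were higher (median 0.46, sum 426 to 611 CPM in WT and 519.9 to 627 CPM in K146Q mice). The summed ranges of the genotypes overlapped in each list. No gene of these lists passed the test, and their part in the precursor values was not tested. The share of all genes lower in K146Q mice was not counted. The widest 95% CI of a tested precursor ran from -1.28 upward (Ucn, -1.28 to 0.43), so differences of that size in low genes could not be seen at this depth. Cort, Galp, Nmu, and Npw were not tested.

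Trh (on chr6:92242061-92244650, GRCm38) was at 45.3, 46 and 56.2 CPM in the WT and 47.6, 39.8 and 51 CPM in the K146Q mice. The genotypes overlapped, and the log2 difference was -0.0917 (SE 0.10, adjusted p = 0.998) with a 95% CI of -0.32 to 0.14. None of the other hypophysiotropic precursors passed either. Crh, which drives the adrenal axis, was at 2.98, 2.89 and 2.55 CPM in WT and 3.26, 2.6 and 4.03 CPM in K146Q mice. For Ghrh, which drives growth hormone secretion, the WT values were 2.09, 1.85 and 3.83 CPM and the K146Q values 2.17, 1.8 and 2.47 CPM. In each case the ranges overlapped. Gnrh1 and Kiss1 (kisspeptin), the reproductive pair, lay at 0.751 to 1.13 and 0.289 to 0.87 CPM in WT mice and at 0.362 to 1.51 and 0.215 to 0.543 CPM in K146Q mice. Sst, which inhibits the release of growth hormone and TSH, was at 68.7, 69.8 and 93.9 CPM in the WT and 66.6, 68.5 and 77.8 CPM in the K146Q mice, with a log2 difference of -0.11 (SE 0.11, adjusted p = 0.998).

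The magnocellular precursors Avp and Oxt overlapped between the genotypes. Avp was at 100.4, 112 and 118 CPM in the WT and 116, 76.7 and 109 CPM in the K146Q mice, a log2 difference of -0.15 (SE 0.13, adjusted p = 0.998). Oxt was at 83.8, 97.5 and 119 CPM in the WT and 86.1, 67 and 94.2 CPM in the K146Q mice, a log2 difference of -0.28 (SE 0.14, adjusted p = 0.998). In K146Q mouse 62 both were lowest. Vgf was at 287, 296 and 362 CPM in the WT and 277, 248 and 357 CPM in the K146Q mice, with a log2 difference of -0.11 (SE 0.12, adjusted p = 0.998). Pmch, a lateral hypothalamic precursor tied to feeding and sleep, was at 200.5, 229.8 and 254 CPM in the WT and 199.5, 173 and 211 CPM in the K146Q mice, a log2 difference of -0.23 (SE 0.0885, adjusted p = 0.998). Its unadjusted p was under 0.05, as were those of Cartpt, Ucn3, and Npb, and none passed the adjustment. Cartpt, a precursor of satiety peptides, stood at 41.8, 46.2 and 43.8 CPM in WT and 43, 36.5 and 33.1 CPM in K146Q hypothalamus. Ucn3, a ligand of the CRH receptor family, had K146Q values of 1.21, 1.2 and 1.51 CPM, below the WT values of 1.67, 2.14 and 1.91 CPM. Npb (neuropeptide B) had K146Q values of 0.905, 1.1 and 0.592 CPM, above the WT values of 0.358, 0.462 and 0.522 CPM.

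Among the other feeding and arousal peptides, Hcrt (orexin) was at 67.4 to 84.7 CPM in WT and 53.7 to 71.9 CPM in K146Q mice. Npy and Agrp, the orexigenic pair of the arcuate nucleus, lay at 8.09 to 10.1 and 1.16 to 1.68 CPM in WT and at 8.01 to 9.18 and 0.905 to 1.29 CPM in K146Q mice. The log2 differences of the 3 genes were -0.23, -0.0678, and -0.29. Among the opioid and tachykinin precursors, Pdyn was at 27.2 to 36.7 CPM in WT and 24.5 to 36 CPM in K146Q mice, Tac1 (substance P) at 26.1 to 33.4 and 27.1 to 34 CPM, and Tac2 (neurokinin B) at 31 to 33.9 and 27.1 to 33.6 CPM. Penk was tight in WT mice, at 49.9, 48.1 and 49.4 CPM, and uneven in K146Q mice, at 47, 45.2 and 94 CPM. K146Q mouse 83, the high one, also had the highest hypothalamic Ppp1r1b (70.7 CPM, against 26.5 to 36.5 CPM in WT) and Drd2 (16.9 CPM, against 10.1 to 12.6 CPM), both genes of striatal neurons, and the part of other brain tissue in this Penk value was not tested. Without this mouse the log2 difference of Penk was -0.0916 in place of 0.25, and 0 precursors were called.

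The remaining precursors are given by their WT range and their K146Q range. Those above 10 CPM in at least 1 mouse were Cck, the cholecystokinin precursor (63.2 to 74.1 and 69.5 to 84.6 CPM), Adcyap1, which encodes PACAP (42.5 to 62.7 and 39.3 to 52.2 CPM), Gal (18.7 to 20.1 and 16.8 to 18.9 CPM), Bdnf (12 to 13.2 and 12.1 to 16.2 CPM), and Nts, the neurotensin precursor (10.3 to 13.2 and 10.02 to 15.3 CPM). Between 1 and 6 CPM in WT mice were Vip (3.46 to 5.16 and 2.35 to 3.66 CPM), Nppc (3.19 to 3.99 and 2.85 to 3.66 CPM), Grp (2.43 to 3.19 and 2.17 to 2.4 CPM), Nmb (1.96 to 3.02 and 1.99 to 2.35 CPM), Adm (1.73 to 2.38 and 2.0 to 3.38 CPM), and Nppa, atrial natriuretic peptide (1.1 to 2.03 and 1.4 to 2.21 CPM). At the low end were Npvf, the precursor of RFamide-related peptides (0.982 to 1.61 and 0.951 to 1.94 CPM), Qrfp (0.636 to 1.16 and 0.45 to 0.604 CPM), Ucn (0.776 to 1.91 and 0.161 to 1.45 CPM), Nms (0.418 to 0.696 and 0.15 to 0.645 CPM), Prok2 (0.464 to 0.809 and 0.65 to 0.861 CPM), and Rln3, relaxin-3 (0.347 to 0.696 and 0.108 to 0.845 CPM). In Grp and Qrfp each K146Q value lay below each WT value, as in Ucn3, but no gene of this group had an unadjusted p under 0.05. Such a separation of 3 mice from 3 cannot give a permutation p under 0.1, and the share of all genes so separated was not counted. None of 49 tested neuropeptide receptors and none of 8 processing enzymes and chaperones passed the test in hypothalamus; the receptor log2 differences ran from -0.35 to 0.77 and those of the processing genes from -0.0712 to 0.049, with 2 and 0 at an unadjusted p under 0.05.

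**Figure D2:**
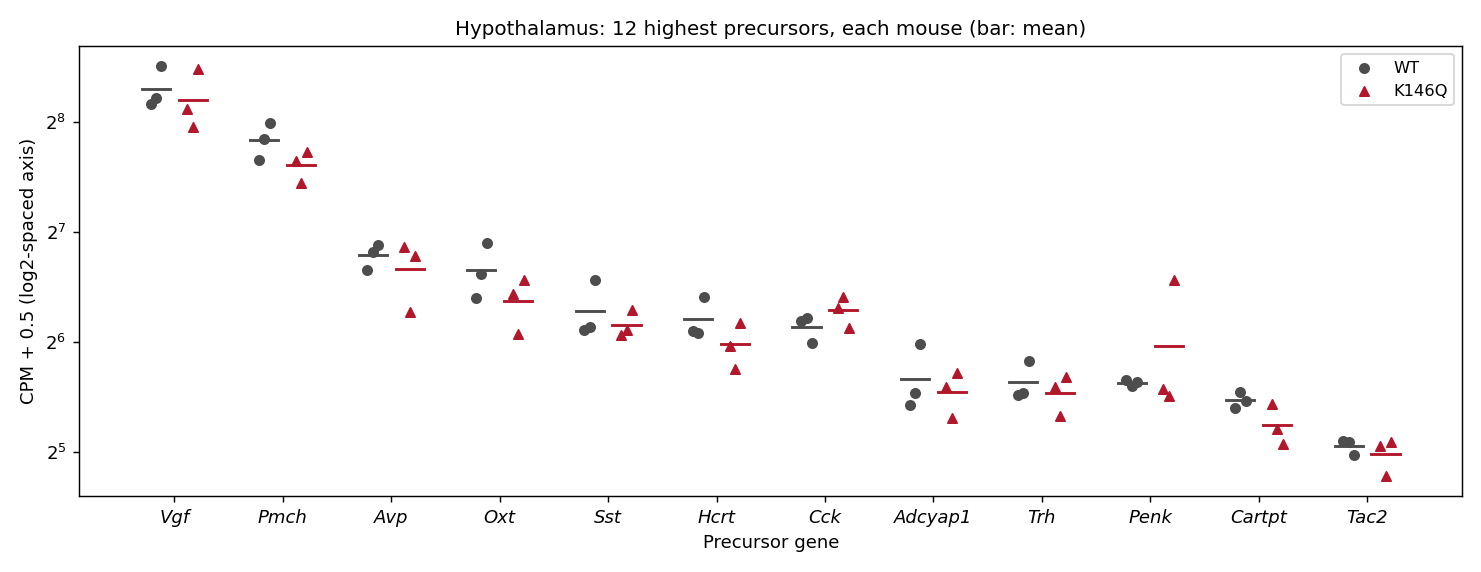
The 12 precursor genes with the highest WT mean in hypothalamus, 1 point per mouse (n = 3 per genotype), with CPM + 0.5 on a log2-spaced y axis and bars at the arithmetic mean. WT values (circles) and K146Q values (triangles) interleave, and the highest K146Q point of Penk is mouse 83 at 94 CPM.

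In the pituitary, 6 precursors were higher in K146Q than in WT mice and 1 was lower. The rises were seen in Grp, Cartpt, Vgf, Nmb, Bdnf, and Pdyn, with ratios of the mean CPM from 1.85 for Pdyn to 53.8 for Grp, and the fall in Gal. Of 41 genes 18 were tested, so that 7 were called, beside 9.86% of 15589 genes in all; 6.36% of all genes rose and 3.5% fell. The median log2 difference was 0.16 over the tested precursors and -0.00875 over all genes. The summed level of the 41 genes was 86.4 to 126 CPM in WT and 231 to 611 CPM in K146Q mice.

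Grp was at 1.65, 1.72 and 0.627 CPM in the WT and 169, 33.7 and 11.3 CPM in the K146Q mice, and K146Q mouse 60 stood far above the other 2. The log2 difference was 4.55 (SE 0.76, adjusted p = 0.0056). Cartpt (on chr13:99898489-99901091, GRCm38) was at 1.02, 1.37 and 1.82 CPM in the WT and 81.6, 16.2 and 14.9 CPM in the K146Q mice, again with mouse 60 highest, and its log2 difference was 3.88 (SE 0.53, adjusted p = 0.00192). Cartpt peptides are best known as hypothalamic satiety signals, and its pituitary level in K146Q mouse 60 exceeded all 6 hypothalamic values of these mice. Vgf was at 10.5, 12 and 27.7 CPM in the WT and 197, 103 and 78.8 CPM in the K146Q mice, a log2 difference of 2.91 (SE 0.38, adjusted p = 0.00151). Nmb, whose product belongs to the same bombesin-like family as that of Grp, was at 3.6, 2.97 and 2.22 CPM in the WT and 25.5, 17.3 and 11 CPM in the K146Q mice, a log2 difference of 2.37 (SE 0.27, adjusted p = 7.50e-04). Each K146Q value of these 4 genes lay above each WT value. They were named because they passed the test, so this separation adds no support, and the share of all genes so separated was not counted. Nmb shares 163 exon bases with Sec11a on the same strand, and the counting rule for shared bases was not given.

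Bdnf was at 10.9, 11.2 and 19.6 CPM in the WT and 65.5, 40.4 and 40.1 CPM in the K146Q mice, a log2 difference of 1.79 (SE 0.24, adjusted p = 0.00181). Its receptor Ntrk2 rose as well (0.52 on the log2 scale), from 206, 188 and 189.8 to 287, 267 and 282 CPM. Pdyn was at 13.7, 15.6 and 12.6 CPM in the WT and 25.8, 26.2 and 25.2 CPM in the K146Q mice, the tightest of the rises, with a log2 difference of 0.87 (SE 0.10, adjusted p = 9.93e-04). Gal, whose mean per kilobase was highest in the WT pituitary but within the spread of Oxt, was at 8.54, 12.6 and 30.9 CPM in the WT and 7.28, 4.24 and 3.36 CPM in the K146Q mice, with WT mouse 43 highest. Its log2 difference was -1.57 (SE 0.41, adjusted p = 0.0408), and leaving out single mice kept the call in 1 of 6 fits; without WT mouse 43 the log2 difference was -1.06 (adjusted p = 0.0547). Without K146Q mouse 60, which was highest for Grp, Cartpt, Vgf, Nmb, and Bdnf, the 6 rises were still called and Gal was not (adjusted p = 0.0517). In that fit the log2 differences were 3.52 for Grp, 3.10 for Cartpt, 2.53 for Vgf, 2.08 for Nmb, 1.56 for Bdnf, and 0.87 for Pdyn, and 655 of all genes were called in place of 1537.

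**Figure D3:**
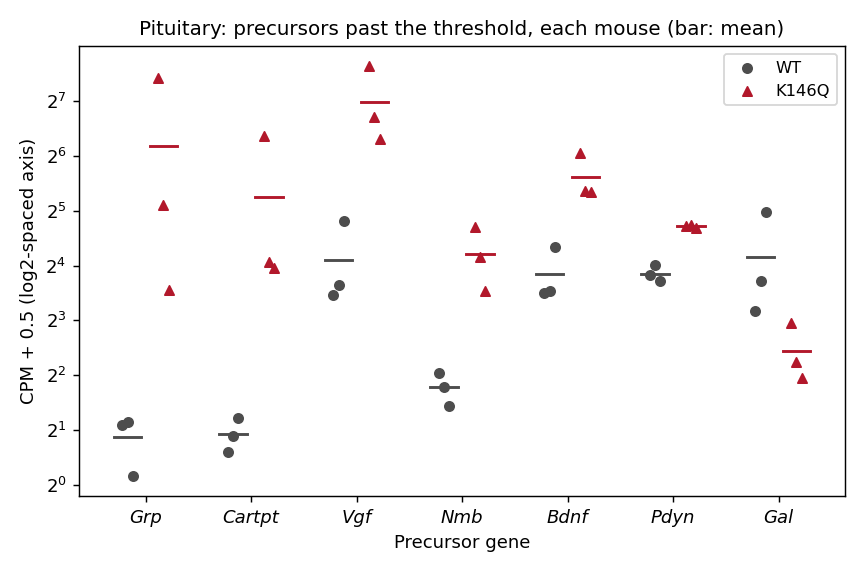
Pituitary levels of the 7 precursor genes past the threshold, 1 point per mouse (n = 3 per genotype), with CPM + 0.5 on a log2-spaced y axis and bars at the arithmetic mean. All K146Q values (triangles) lie above all WT values (circles) for Grp, Cartpt, Vgf, Nmb, Bdnf, and Pdyn, and below them for Gal.

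The other 11 tested precursors were not called in pituitary. Penk was at 14.8, 13.9 and 9.97 CPM in the WT and 14, 17 and 22.7 CPM in the K146Q mice, a log2 difference of 0.45 (SE 0.19, adjusted p = 0.18). Oxt was at 6.85, 8.87 and 5.75 CPM in the WT and 4.7, 8.01 and 8.03 CPM in the K146Q mice, a log2 difference of -0.0637 (SE 0.22, adjusted p = 0.893). Nmu had K146Q values of 0.619, 0.613 and 0.652 CPM, all below the WT values of 1.51, 1.32 and 0.74 CPM, with an adjusted p of 0.162. The rest, as WT and K146Q ranges, were Avp (1.37 to 3.6 and 1.86 to 2.36 CPM), Cck (1.37 to 3.53 and 1.81 to 3.57 CPM), Adm (2.28 to 2.85 and 2.68 to 2.96 CPM), Nppc (0.854 to 1.66 and 1.15 to 1.63 CPM), Tac1 (0.572 to 0.979 and 0.602 to 1.03 CPM), Agrp (0.342 to 0.972 and 0.401 to 0.671 CPM), Npb (0.342 to 0.572 and 0.351 to 0.722 CPM), and Nppa (0.40 to 0.578 and 0.31 to 0.664 CPM). Of the 23 genes under the minimum, Rln3 was at 0.089, 0.0572 and 0.057 CPM in the WT and 3.15, 0.664 and 0.451 CPM in the K146Q mice and Sst at 0, 0.114 and 0.513 CPM in the WT and 3.2, 0.255 and 0.351 CPM in the K146Q mice, both highest in K146Q mouse 60. These 2 were singled out after their values were seen and had no test within the pituitary. Trh was at 0.267, 0.114 and 0.228 CPM in the WT and 0.155, 0.204 and 0.451 CPM in the K146Q mice, 9 reads or fewer per library.

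Some markers of other cell types also differed in the pituitary, where 9.86% of all genes were called, and others did not. The part of these markers in the precursor changes was not tested. The 6 neuronal markers summed to 494 to 560.2 CPM in WT and 763 to 831 CPM in K146Q mice, and 2 of them (Syt1 among them, 194 to 235 CPM in WT and 393 to 467 CPM in K146Q mice) were called higher, none lower. The 6 markers of posterior lobe and glia summed to 121 to 145 CPM in WT and 122 to 137 CPM in K146Q mice, with 1 called lower, and 0 of 4 intermediate lobe markers were called. The 5 immune markers summed to 17.6 to 26.3 CPM in WT and 31.2 to 65.2 CPM in K146Q mice, with 2 called higher. The 4 endothelial markers summed to 222 to 241 CPM in WT and 254 to 264 CPM in K146Q mice, with 1 called higher, and of the 3 parathyroid markers Casr was called higher (9.23 to 11.6 CPM in WT and 46.4 to 103 CPM in K146Q mice), while the defining marker Pth was at 1.65 to 1.88 and 1.23 to 1.66 CPM and Gcm2 at no more than 0.0572 CPM. Th, which encodes the rate-limiting enzyme of catecholamine synthesis, was called higher, at 3.43, 3.83 and 1.54 CPM in the WT and 112, 42.4 and 27.6 CPM in the K146Q mice with K146Q mouse 60 highest, while Dbh, a later enzyme of that pathway, was at most at 0.10 CPM. Of the 8 anterior pituitary genes, the TSH subunit genes Tshb (235 to 593 CPM in WT and 5600.2 to 8183 CPM in K146Q mice) and Cga were called higher and 1 was called lower (log2 difference -1.65).

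Among 55 neuropeptide receptors 35 were tested in pituitary, and 6 were called higher and 4 lower, beside 6.36% and 3.5% of all genes. The median log2 difference of the tested receptors was 0.0198. The TRH receptor Trhr was at 13.6, 5.72 and 8.2 CPM in the WT and 71.1, 59.9 and 53.2 CPM in the K146Q mice (log2 difference 2.75, with an SE of 0.25 and an adjusted p = 2.28e-04), with no overlap. Npbwr1, a receptor of neuropeptides B and W, rose by 2.97 on the log2 scale, to 7.84, 8.32 and 7.67 CPM from 1.16, 0.286 and 0.456 CPM. Oprk1, the dynorphin receptor, rose by 1.35, Sstr4 by 1.07, and Npy1r by 0.70. The somatostatin receptor Sstr5 (-1.10) and the cholecystokinin receptor Cckbr (-0.80) fell. For Oprk1, Sstr4, Npy1r, Sstr5, and Cckbr the call was lost in 3 to 5 of the 6 fits that left out a mouse. The receptors of the 2 bombesin-like precursors that rose were near 0 in pituitary, with Grpr at no more than 0.40 CPM and Nmbr at no more than 0.114 CPM in any mouse. Of the 8 processing genes, Pcsk1 rose from 211, 225 and 215 to 611, 468 and 438 CPM (log2 difference 1.2, with an SE of 0.11 and an adjusted p = 2.80e-04) and Pam by 0.59 (with quantile normalization 0.23, adjusted p = 0.143), and Furin was called lower (log2 difference -0.26, with an SE of 0.0632 and an adjusted p = 0.0302).

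In the thyroid, Cck and Bdnf were higher in K146Q than in WT mice, and Sst, Penk, Grp, and Nppc were lower. Of 41 genes 10 were tested and 6 were called, beside 37.8% of 15200 genes in all; 19.7% of all genes rose and 18.1% fell. Cck and Bdnf passed the minimum through the K146Q libraries alone. The median log2 difference was -0.42 over the tested precursors and -0.025 over all genes. The summed level of the 41 genes was 124 to 155 CPM in WT and 158 to 169.8 CPM in K146Q mice. Per kilobase, Grp led the WT thyroid (57 ± 12 CPM per kb) and Cck led the K146Q thyroid (68.5 ± 10.02 CPM per kb).

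Cck (on chr9:121489824-121495694, GRCm38) was at 0.379, 0.38 and 0.421 CPM in the WT and 89.7, 76.1 and 102 CPM in the K146Q mice, that is 6 or 7 reads per library in WT and 1295 to 1809 reads in K146Q mice. The log2 difference was 6.64 (SE 0.14, adjusted p = 1.06e-06), and the ratio of the mean CPM was 227. Cck encodes cholecystokinin, a peptide of gut and brain, and its K146Q thyroid values reached those of the hypothalamus, where it was at 63.2 to 74.1 CPM in WT and 69.5 to 84.6 CPM in K146Q mice. Bdnf was at 0.442, 0.316 and 0.18 CPM in the WT and 1.39, 2.76 and 2.64 CPM in the K146Q mice, a log2 difference of 1.74 (SE 0.27, adjusted p = 0.00248). Its level in K146Q thyroid stayed under the WT pituitary range of 10.9 to 19.6 CPM. Each K146Q value of Cck and Bdnf was above each WT value.

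Sst (on chr16:23889573-23890958, GRCm38), which is known to be made in a part of the calcitonin-producing C cells, was at 5.37, 5.25 and 9.26 CPM in the WT and 0.446, 0.588 and 0.234 CPM in the K146Q mice. The log2 difference was -2.92 (SE 0.27, adjusted p = 2.49e-04), and the WT mean was 15.7 times the K146Q mean. Penk was at 17.6, 19.8 and 15.8 CPM in the WT and 6.79, 5.47 and 5.86 CPM in the K146Q mice, a log2 difference of -1.48 (SE 0.14, adjusted p = 2.86e-04). Grp was at 66.6, 102 and 83.8 CPM in the WT and 47, 55.3 and 39.6 CPM in the K146Q mice, a log2 difference of -0.82 (SE 0.18, adjusted p = 0.00936). Nppc, which encodes a peptide that acts on vessels and growing cartilage, was at 14, 11.6 and 8.96 CPM in the WT and 7.78, 4.53 and 5.98 CPM in the K146Q mice, a log2 difference of -0.87 (SE 0.23, adjusted p = 0.0203). For each of these 4 genes all WT values were above all K146Q values. Like Cck and Bdnf, they were named because they passed the test, so this separation adds no support. The share of all genes so separated was not counted. In a fit of all 18 libraries together, Grp lost its call (adjusted p = 0.283), and Nppc lost its call in 3 of 6 fits that left out a mouse, among them that without WT mouse 1 (adjusted p = 0.0604), the library with the high Gh value.

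Adm was at 12.5, 7.34 and 12.6 CPM in the WT and 7.29, 7.05 and 4.75 CPM in the K146Q mice with no overlap, and its log2 difference of -0.70 (SE 0.25, adjusted p = 0.0589) did not pass. The other 3 tested precursors overlapped. Npy was at 1.07 to 3.86 CPM in WT and 1.17 to 2.33 CPM in K146Q mice, Nmb at 1.68 to 1.83 and 1.18 to 2.23 CPM, and Vgf at 0.316 to 1.07 and 0.529 to 0.595 CPM, with 95% CIs of the log2 difference of -1.04 to 0.76, -0.58 to 0.45, and -0.69 to 0.60. Cartpt, not tested here, was at 0.0633 to 0.241 CPM in WT and 0 to 0.0496 CPM in K146Q thyroid. Of the 31 genes not tested, Trh was at 0.0632, 0.127 and 0 CPM in the WT and 0.149, 0 and 0.234 CPM in the K146Q mice. Crh, Galp, Nms, Npvf, and Cort had no read in any of the 6 thyroid libraries.

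**Figure D4:**
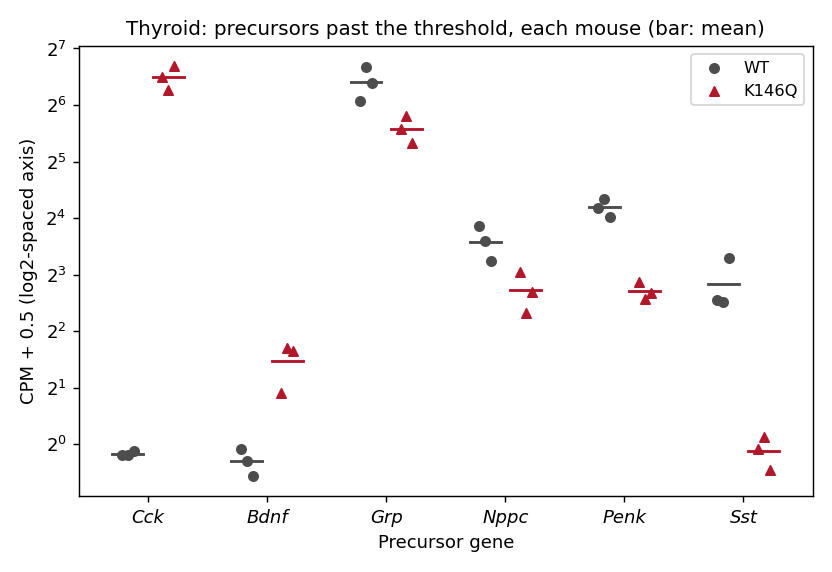
Thyroid levels of the 6 precursor genes past the threshold, 1 point per mouse (n = 3 per genotype), with CPM + 0.5 on a log2-spaced y axis and bars at the arithmetic mean. All K146Q values (triangles) lie above all WT values (circles) for Cck and Bdnf and below them for Sst, Penk, Grp, and Nppc.

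Cell type markers also differed between the thyroids, where 37.8% of all genes were called, and the part of these markers in the precursor changes was not tested. The 7 follicular cell markers, with Tg foremost, summed to 299623 to 361343 CPM in WT and 90316 to 137747 CPM in K146Q mice, and 3 were called higher and 1 lower. The called fall was not Tg, whose log2 difference of -1.71 had an SE of 5.14 and did not pass. The study itself reported Tg RNA as significantly lower in K146Q thyroid. The 4 C cell markers (sum 8968 to 14995 CPM in WT and 1370.3 to 3529 CPM in K146Q mice) were all called, 3 lower and 1 higher (log2 difference 2.57). Calca, the calcitonin gene and 1 of those lower, was at 2069 to 2591 CPM in WT and 163 to 309.8 CPM in K146Q mice. The 3 parathyroid markers (sum 3454 to 6409 CPM in WT and 523 to 1569 CPM in K146Q mice) and the 4 adipose markers (sum 249 to 389 CPM in WT and 34.8 to 69 CPM in K146Q mice) were all called lower. Of the 5 immune markers (sum 125 to 286 CPM in WT and 362 to 477 CPM in K146Q mice) 2 were called higher. The 6 neuronal markers summed to 14.9 to 19.3 CPM in WT and 13 to 23.1 CPM in K146Q mice, with 1 called higher and 1 lower, and the 4 endothelial markers to 553 to 640.1 CPM in WT and 724 to 797 CPM in K146Q mice, with 2 called higher. The 6 glial and posterior lobe markers summed to 64.2 to 78.1 CPM in WT and 288 to 374 CPM in K146Q mice, with 2 called lower and Col25a1 called higher, at 5.88 to 10.9 CPM in WT and 244 to 334 CPM in K146Q mice. The 8 genes listed for other brain regions summed to 808 to 1113 CPM in WT and 409.8 to 497 CPM in K146Q mice, with 1 called higher and 2 lower, Kl (239.7 to 443 CPM in WT and 35.7 to 91.1 CPM in K146Q mice) and Ppp1r1b (379.7 to 462 and 178 to 248 CPM). In WT hypothalamus that list summed to 426 to 611 CPM, and whether it marks brain tissue in thyroid was not tested. None of these lists had a gene at 0 in all libraries of a genotype.

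The processing genes and receptors of the thyroid differed as well. Of the 8 processing genes 7 were called, 5 lower and 2 higher, beside 37.8% of all genes (18.1% lower and 19.7% higher). Their summed level was nonetheless higher in K146Q mice, at 2088 to 2412 CPM against 1056 to 1413 CPM in WT. Both convertases fell: Pcsk2 from 139, 142 and 120.3 to 13.6, 8.23 and 8.79 CPM (log2 difference -3.68, with an SE of 0.18 and an adjusted p = 2.52e-05) and Pcsk1 from 35, 33 and 20.7 to 2.68, 1.65 and 1.52 CPM (log2 difference -3.61, with an SE of 0.25 and an adjusted p = 9.54e-05). Cpe (-1.50) and Pcsk1n (-2.28), an inhibitor of Pcsk1, fell, whereas Scg5, a chaperone of Pcsk2, rose by 1.94. Of 55 receptors 24 were tested, with 6 higher and 6 lower, beside 19.7% and 18.1% of all genes. The median log2 difference of the tested receptors was -0.0387. Grpr, the receptor of gastrin-releasing peptide, rose from 0.379, 0.19 and 0.541 to 6.34, 4.11 and 6.21 CPM (log2 difference 2.80, with an SE of 0.24 and an adjusted p = 2.03e-04), while Grp fell. Cckar, a cholecystokinin receptor, fell from 2.15, 6.33 and 2.41 to 0.149, 0 and 0.41 CPM (log2 difference -2.49, with an SE of 0.40 and an adjusted p = 0.00276), while Cck rose, and Cckbr was at no more than 0.189 CPM. Trhr rose by 2.33 to 3.17, 2.53 and 3.4 CPM; Cckar passed the minimum through WT libraries alone, and Trhr through K146Q libraries alone, and Grpr reached it in 1 WT library. Ntrk2 (-1.74), the Bdnf receptor, and Npr1 (-1.51), a natriuretic peptide receptor, fell.

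**Figure D5:**
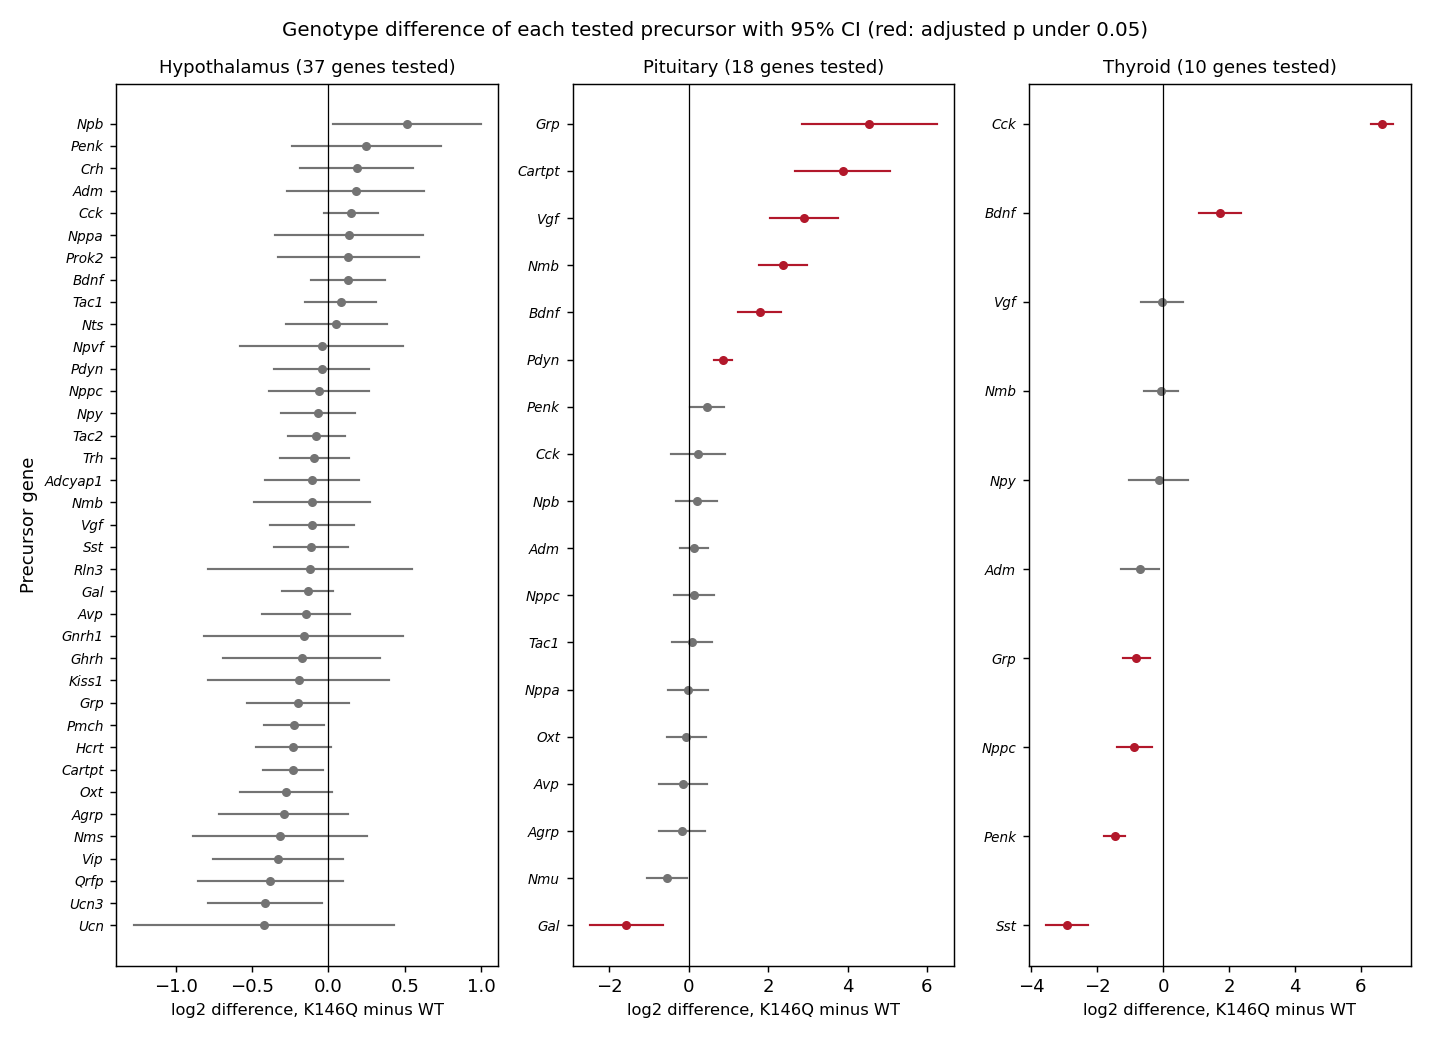
Log2 difference between K146Q and WT mice for each tested precursor gene, by tissue, with its 95% CI (3 mice per genotype). Points in red have an adjusted p under 0.05, and each panel has its own x axis: 0 of 37 genes are red in hypothalamus, 7 of 18 in pituitary, and 6 of 10 in thyroid.

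The genotype differences were then compared between tissues in 1 fit of the 18 libraries, in which the same mouse numbers occur in every tissue. Pituitary and hypothalamus differed in 5 of 38 precursors tested, beside 3.24% of 17140 genes in all (2.29% more positive in pituitary and 0.945% in hypothalamus): Grp, Cartpt, Vgf, Nmb, and Bdnf, each more positive in pituitary. For Pdyn, called in pituitary, the difference between the 2 tissues was 0.91 (95% CI 0.35 to 1.48, adjusted p = 0.0816). Thyroid and hypothalamus differed in 8, beside 30.8% of all genes, with Cck, Bdnf, and Pmch more positive in thyroid (beside 15.6%) and Sst, Penk, Nppc, Adm, and Npb more negative (beside 15.2%). The call of Nppc held in 5 of 16 alternatives. The count of 8 fell to 5 without mouse 1 and to 4 without mouse 60 or mouse 62. Pituitary and thyroid differed in 12, beside 33.8% of all genes, 9 of them more positive in pituitary (beside 17.4%) and 3 in thyroid (beside 16.4%). Grp went in opposite directions, higher in K146Q pituitary and lower in K146Q thyroid, with a difference of the 2 effects of 5.36 on the log2 scale (SE 0.83, adjusted p = 1.07e-04). Bdnf was higher in both, and the difference between pituitary and thyroid was 0.0525 (95% CI -0.69 to 0.79, adjusted p = 0.927). This does not show equal effects, since the ratios of the mean CPM were 3.51 in pituitary and 7.23 in thyroid. In thyroid the WT mean of Bdnf was 0.313 CPM, where the log2 difference understates the change, and Bdnf passed the minimum there through K146Q libraries alone. With the mouse number as a block, Rln3 was added to the differences of pituitary from hypothalamus (adjusted p = 0.0417) and from thyroid (adjusted p = 0.0179).

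Without the 10 highest genes in the totals, the precursors called kept their directions in pituitary (6 higher and 1 lower) and became 2 higher and 5 lower in thyroid, with Adm added. Over all genes, the split moved from 991 higher and 546 lower to 837 and 879 in pituitary, and from 2992 and 2747 to 2496 and 3613 in thyroid.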

How the data were processed

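RNA-Seq was performed in bulk hypothalamus, pituitary, and thyroid of 3 WT and 3 K146Q mice, 18 libraries in all. The authors deposited a normalized CPM signal per gene and library, that is, reads scaled by library size and a normalization factor. The factors were set over all 18 libraries together, so the tissues share 1 scale. Plain CPM had been assumed when the tests were planned, and the same limma tests were kept for this signal. The submitters' processing notes name bcl2fastq 2.17, Bowtie2 2.1.0, RSEM 1.2.15, and the build mm10; the annotation, the strand of counting, and the normalization software are not given in the sources used here. All values (100% within a tolerance of 0.01 reads) were whole multiples of 1 read, so the depth of 14902330 to 21230050 reads per library could be read from them, and 3 reads were worth 0.133 to 0.19 CPM. Deposited columns of the authors' own comparisons (log fold change, log CPM, likelihood ratio, p-value, and false discovery rate) were not used. Symbols not found once in each table (27) were left out of comparisons between tissues.

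Genes with 0.5 CPM or more in 3 or more libraries were fitted with limma 3.58.1 (R 4.3.3, trended variance) on log2(CPM + 0.5), each tissue alone for genotype, the 9 WT libraries for tissue, and the 18 libraries for differences of genotype effects. P-values were adjusted by the Benjamini-Hochberg method over all genes tested, with a threshold of 0.05, and intervals are 95% CIs. The scripts were tested on simulated data. Alternatives were pseudocounts of 0.1 and 1, other filters and scalings, a fit without the variance trend, each mouse left out, and whole reads in edgeR 4.0.16, which called 0, 1530, and 5640 genes in hypothalamus, pituitary, and thyroid, and in DESeq2 1.42.0. Gene positions and exon lengths are from GENCODE M21 (GRCm38) and promoter sequences from RefSeq (GRCm38.p6). The precursor, receptor, processing, and marker lists were chosen with earlier results of these data known. All precursors were named; full statistics were given for those past the threshold, for the 5 with the highest WT level per kilobase in each tissue, and for Trh, except that Trh was too low to test in pituitary and thyroid, and the receptor and processing genes past the threshold with a mean of 1 CPM or more in either genotype were named up to 10 per tissue by size. Furin, Syt1, Casr, Col25a1, Kl, Th, the hypothalamic region genes, Ppp1r1b, Drd2, and pituitary Rln3 and Sst were named after their values were seen. Mouse numbers recur in each tissue and were taken to mark the same animal, which pairs the tissues but not the genotypes; deviations of same-numbered libraries correlated from -0.027 to 0.174 over 17140 genes, with 3 of 18 over 0.1. Replicates all differed beyond sampling noise (lowest chi-square over its degrees of freedom 5.88).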

Additional observations from a re-analysis of the deposited data

Results flagged for a closer look

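The values below are differences between tissues in the genotype effect, each the K146Q minus WT log2 difference of the first tissue less that of the second, in 1 limma fit of the 18 libraries with p-values adjusted over all genes. Each passed the test of that difference, which is why it is listed. For pituitary less hypothalamus these were Grp at 4.75, Cartpt at 4.11, Vgf at 3.02, Nmb at 2.48, and Bdnf at 1.66. All 5 effects were more positive in pituitary.

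For thyroid less hypothalamus, Cck was at 6.50, Bdnf at 1.61, and Pmch at 0.91, each more positive in thyroid. Sst was at -2.81, Penk at -1.73, Adm at -0.88, Npb at -0.85, and Nppc at -0.81, each more negative in thyroid. The thyroid values of Pmch rest on 0, 1, and 0 reads in WT and 10, 5, and 4 reads in K146Q mice, and those of Npb on 3, 9, and 2 and 2, 2, and 2 reads.

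For pituitary less thyroid, Grp was at 5.36, Cartpt at 4.24, Sst at 3.90, Vgf at 2.95, Nmb at 2.44, Penk at 1.93, Pdyn at 1.37, Nppc at 0.999, and Adm at 0.84, each more positive in pituitary. Cck was at -6.40, Gal at -1.31, and Pmch at -0.98, each more negative in pituitary. In thyroid, Cartpt was at 4 reads or fewer per library and Pdyn at 10 or fewer. Pituitary Sst was under the minimum for a test in that tissue, at 0.255 to 3.2 CPM in K146Q mice with mouse 60 highest. Thyroid Gal was at 3 reads or fewer per library, and the sign of its difference depended on the tool.

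Some of these calls depended on the processing. In thyroid less hypothalamus, the call held in 5 of 16 alternatives for Nppc, 11 of 17 for Adm, 11 of 16 for Npb, and 14 of 16 for Pmch. In pituitary less thyroid, it held in 9 of 17 for Adm, 9 of 16 for Gal, 14 of 16 for Nppc, 14 of 16 for Pmch, and 15 of 16 for Cartpt. In pituitary less hypothalamus, it held in 13 of 16 for Bdnf, and was lost without mouse 1, 2, or 62.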

How the results depend on the processing

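Of 156 alternative counts, 145 lay within 1.5 times of the count they replace. Requiring 1 CPM or more in every library left fewer precursors to test, and the called ones became 3 for genotype in thyroid (from 6), 1, 3, and 2 for WT pituitary against hypothalamus, thyroid against pituitary, and thyroid against hypothalamus, and 1, 3, and 2 for the genotype effects of pituitary less hypothalamus, pituitary less thyroid, and thyroid less hypothalamus. DESeq2 called 8 in place of 5 for pituitary less hypothalamus; the cause was not tested. Leaving out each mouse gave 4 to 7 for thyroid less hypothalamus (from 8), 6 to 7 for genotype in pituitary, 5 to 7 in thyroid, and 0 in hypothalamus. Over all genes, the hypothalamus went from 0 to 9 with DESeq2, 2 in the 18-library fit, 6 without K146Q mouse 83, and 1 without WT mouse 43; the pituitary from 1537 to 655 without K146Q mouse 60 and 790 without mouse 62; the thyroid from 5739 to 3763 without K146Q mouse 62; and pituitary less hypothalamus from 555 to 343 at 1 CPM, 237 without mouse 60, and 261 without mouse 62. Of 703 alternatives for single-gene genotype differences, 656 kept direction and side of the threshold, 36 lost the call, 4 gained it, and 7 changed sign. The sign changes were in uncalled genes with a mouse left out, which gave -0.17 to 0.0102 for hypothalamic Trh (also 0.00757), -0.26 to 0.036 for Avp, -0.19 to 0.0327 for Sst, -0.26 to 0.00379 for Vgf, and -0.20 to 0.17 for pituitary Oxt (also 0.0917). For Gal in pituitary less thyroid, edgeR gave 0.59 and DESeq2 0.82 in place of -1.31; the cause was not tested.

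With the mouse number as a replicate block, the precursors called were 29, 22, and 31 between WT tissues, as without it, and 6, 13, and 8 for the genotype effects of pituitary less hypothalamus, pituitary less thyroid, and thyroid less hypothalamus, against 5, 12, and 8 without it. The block changed no call but that of Rln3, which was added to the first 2. WT and K146Q mice have different numbers, so genotype was not tested in pairs. Genes under about 3 reads per library cannot be told from 0 at this depth.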
